A study of Mus musculus with 12 samples.

Results

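Expression of 10 apolipoprotein genes (*Apoa1*, *Apoa2*, *Apoa4*, *Apoa5*, *Apob*, *Apoc1*, *Apoc3*, *Apoe*, *Apoh*, and *Apom*) was measured in 4 cell populations sorted from mouse fetal liver (FL). The members were chosen by gene name, and all 10 were found among the 38127 genes of the count tables. RNA was sequenced from 12 libraries, 3 per population, of C57BL/6 embryos with no allele or agent named in the labels. At embryonic day 14.5 (E14.5), the Ter119-CD45- compartment gave CD54+CD31- cells, CD54+CD31+ cells, and CD54-CD31-Kit+CD24+ cells (hereafter CD31+ cells and Kit+ cells for the last 2 populations). At E18.5, Ter119-CD45-CD54+CD31- cells were sorted. Cells were released with liberase, and antibody gates alone defined each population, so a library can hold more than 1 cell type.

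Apolipoproteins are the protein components of lipoproteins, the particles that carry triglyceride, cholesterol, and phospholipid in blood. *Apob* encodes the structural protein around which very low density lipoprotein is assembled in hepatocytes, *Apoa1* and *Apoa2* encode the main proteins of high density lipoprotein, and *Apoe* encodes a ligand for the cellular uptake of lipoprotein remnants. The C apolipoproteins, *Apoa4*, and *Apoa5* are exchangeable proteins that act on lipolysis and remnant uptake. *Apom* encodes a lipocalin that carries sphingosine-1-phosphate, and *Apoh* encodes beta-2-glycoprotein I, a phospholipid-binding plasma protein. Hepatocytes and their fetal precursors, the hepatoblasts, make most of these proteins, the intestine makes *Apoa1*, *Apoa4*, and *Apob*, and macrophages make *Apoe*.

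The 10 genes lie at 6 places in the genome (GRCm38, GENCODE vM21). *Apoa1* (chr9:46228580-46230466, plus strand), *Apoc3* (chr9:46232933-46235636, minus strand), *Apoa4* (chr9:46240696-46243459, plus strand), and *Apoa5* (chr9:46268633-46271919, plus strand) form a cluster of 43340 bp. *Apoc1* (chr7:19689481-19692660) and *Apoe* (chr7:19696109-19699188) are neighbors on the minus strand within 9708 bp. *Apoa2* (chr1:171225054-171226379, plus strand), *Apob* (chr12:7977648-8016835, plus strand), *Apoh* (chr11:108343354-108414396, plus strand), and *Apom* (chr17:35128997-35132050, minus strand) stand alone. Counts were summed over the exons of each gene, which span from 537 bp in *Apoa2* to 13934 bp in *Apob*. *Apoa4* shares 632 and 634 exon bases with the antisense genes Gm10680 and Gm47528, and *Apoa5* shares 524 with antisense Gm47544. The 3 antisense genes had at most 1 count in any library, and the strand setting of the counting is not given in the sources used here.

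The sequences before the start sites of *Apoe*, *Apoa1*, *Apoa2*, and *Apob*, the members with the most counts, are shown because *Apoe* went apart from the other 3 in CD31+ cells (below). They come from RefSeq (GRCm38.p6), in which 8 of the 10 members matched a promoter window, are written 5′ to 3′ on the gene's strand, and end at the base before the annotated gene. Capitals mark the motifs searched on both strands: TATA box TATAAA, GC box GGGCGG, nuclear receptor half-site AGGTCA, HNF4-type site CAAAGTCCA, forkhead site TGTTTAC, and HNF1 half-site GTTAAT.
Apoe, chr7:19699189-19699438: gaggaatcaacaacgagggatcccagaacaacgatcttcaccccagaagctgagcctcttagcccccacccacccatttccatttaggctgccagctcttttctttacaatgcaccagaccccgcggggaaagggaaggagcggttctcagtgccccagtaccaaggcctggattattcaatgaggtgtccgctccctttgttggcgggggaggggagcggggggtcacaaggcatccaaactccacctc
Apoa1, chr9:46228380-46228579: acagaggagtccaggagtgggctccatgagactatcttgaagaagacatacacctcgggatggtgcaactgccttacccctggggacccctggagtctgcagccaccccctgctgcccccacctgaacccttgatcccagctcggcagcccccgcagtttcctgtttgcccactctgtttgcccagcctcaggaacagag
Apoa2, chr1:171224804-171225053: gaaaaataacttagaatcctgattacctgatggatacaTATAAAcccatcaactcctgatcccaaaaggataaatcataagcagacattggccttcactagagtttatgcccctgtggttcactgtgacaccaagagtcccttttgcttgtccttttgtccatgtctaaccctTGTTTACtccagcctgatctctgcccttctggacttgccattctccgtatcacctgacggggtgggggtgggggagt
Apob, chr12:7977427-7977647: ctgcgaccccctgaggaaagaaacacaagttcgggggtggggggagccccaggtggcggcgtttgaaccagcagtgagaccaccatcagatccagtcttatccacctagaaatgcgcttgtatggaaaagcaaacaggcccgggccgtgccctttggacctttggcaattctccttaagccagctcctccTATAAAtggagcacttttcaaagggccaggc
TATAAA was found in *Apoa2* and *Apob*, and in 13.6% of 32851 mouse promoter windows of 300 bases. TGTTTAC was found in *Apoa2*, and in 3.65% of all windows. None of the 6 motifs was found in the *Apoe* or *Apoa1* stretch shown, which says only that these letters are not there. RefSeq holds 2 further *Apoe* windows that start inside the annotated gene and were not printed (chr7:19698572-19698871, with TATAAA on both strands, and chr7:19698349-19698648, with TGTTTAC and GTTAAT on the opposite strand), and a further *Apoa2* window (chr1:171221314-171221613) with AGGTCA on the opposite strand. The GC box, the nuclear receptor half-site, the HNF4-type site, and the HNF1 half-site were held by 35.7%, 16.3%, 0.475%, and 7.10% of all windows.

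Total counts per library ranged from 40714017 to 64368883. *Alb*, which encodes serum albumin, had between 40957 and 46668 CPM (the unit of all levels here: counts divided by library size after TMM scaling) in E14.5 CD54+CD31- cells, 465 to 485 in CD31+ cells, and 377 to 395 in Kit+ cells. Summed over 7 endothelial marker genes, CD31+ cells had between 6874 and 7357 CPM, and over 6 erythroid genes Kit+ cells had between 1280 and 1322 CPM. The E18.5 libraries went against their label of liver: 8 lung epithelial genes, among them the surfactant gene *Sftpc*, summed to between 8284 and 19003 CPM there and to at most 5.004 CPM in every E14.5 library, and 7 mesenchymal genes to between 3900 and 4326 CPM. Replicate 1 of E18.5 stood apart, with 2405 CPM of *Alb* against 26604 and 34530 in replicates 2 and 3, so results at E18.5 are given with and without it. The part of these other cells in the results below was not tested, and in sorted bulk samples fewer cells of a type and less RNA per cell cannot be told apart.

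The 10 genes together took 1.90% to 2.36% of all counts in E14.5 CD54+CD31- cells, 0.142% to 0.203% in CD31+ cells, and 0.0280% to 0.0374% in Kit+ cells. Their summed level was 27748 ± 2133 CPM (SD, n = 3), 1620 ± 304 (SD, n = 3), and 314 ± 54.9 (SD, n = 3), respectively, with no overlap between populations. At E18.5 the sum was 7445 ± 5815 CPM (SD, n = 3), with 1035 in replicate 1 and 8918 and 12383 in replicates 2 and 3.

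**Figure D1:**
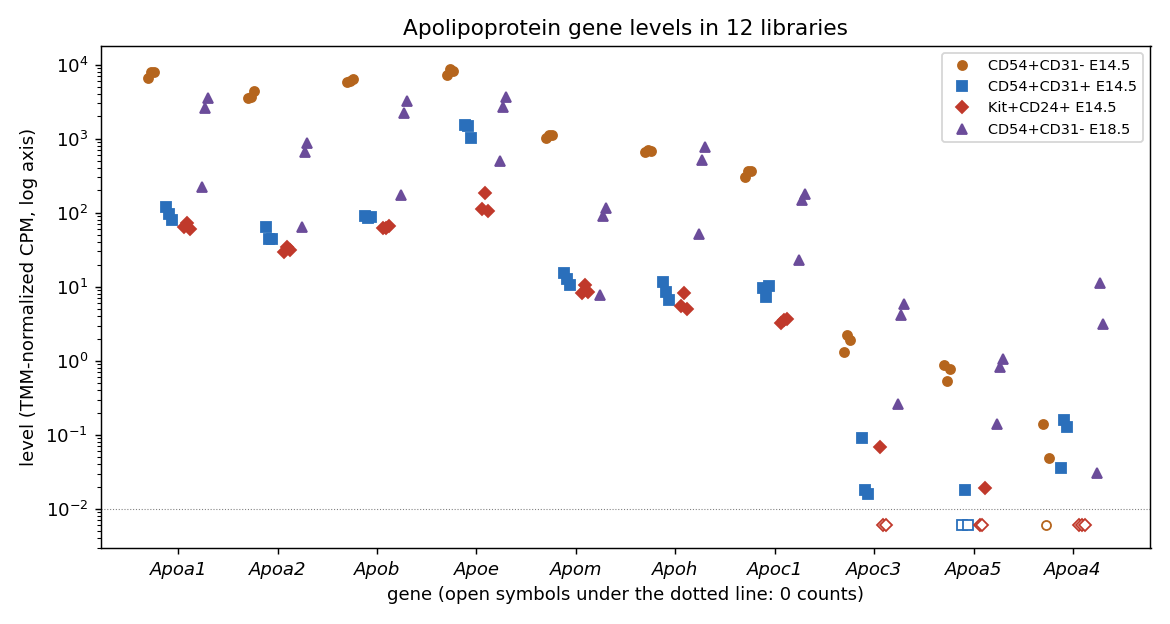
TMM-normalized level of each gene (CPM, log axis) in each of the 12 libraries, 3 symbols per population, with libraries at 0 counts drawn as open symbols under the dotted line. All 3 E14.5 CD54+CD31- libraries sit above the other E14.5 libraries for every gene but *Apoa4*, and E18.5 replicate 1 sits lowest of its population for every gene.

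Levels were ranked per kb of exon. In E14.5 CD54+CD31- cells the order was *Apoa2* (7209 ± 820 CPM per kb, SD, n = 3), *Apoa1* (6074 ± 574), *Apoe* (3802 ± 368), *Apom* (1081 ± 65.6), *Apoc1* (459 ± 47.8), *Apob* (439 ± 23.2), and *Apoh* (426 ± 12.1). The ranges of *Apoc1* and *Apob*, and of *Apob* and *Apoh*, overlapped over the 3 libraries, and the other neighbors did not. *Apoc3* (1.78 ± 0.455), *Apoa5* (0.288 ± 0.0691), and *Apoa4* (0.0350 ± 0.0396) were far below. In CD31+ cells *Apoe* came first with 632 ± 129 CPM per kb (SD, n = 3), clear of *Apoa2* (95.5 ± 22.1) and *Apoa1* (80.1 ± 16.6), which overlapped each other. In Kit+ cells *Apoe* (62.4 ± 20.3), *Apoa2* (59.4 ± 4.83), and *Apoa1* (53.4 ± 5.27) followed each other with overlapping ranges. At E18.5 only *Apom* and *Apoc3* had ranges clear of each other among neighbors, given the distance of replicate 1.

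Kit+ cells, which the study places in the erythroid lineage, were compared with CD54+CD31- cells at E14.5. Every tested apolipoprotein gene was lower in Kit+ cells: 9 of 9 passed the test (edgeR quasi-likelihood test, adjusted p below 0.05) and 0 were higher, beside 36.1% of 15461 tested genes called lower and 33.8% higher. DESeq2 gave the same counts, 9 and 0, and 0 members were higher at an unadjusted p below 0.05. *Apoc3* and *Apoa5* passed the low count filter only through CD54+CD31- cells, so only a lower call was open to them. The median log2 fold change of the 9 genes was -6.63, beside -0.01 over all tested genes, and the 10th gene, *Apoa4*, had too few counts to be tested.

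The structural proteins of lipoproteins are described first. *Apob* was at 5841, 6051, and 6476 CPM in CD54+CD31- cells and at 61.4, 63.2, and 65.9 CPM in Kit+ cells. The 2 populations were far apart, and *Apob* was 97.7-fold lower in Kit+ cells (log2 fold change -6.61 ± 0.10 SE, edgeR adjusted p = 8.7e-11). *Apoa1* had 6691, 7862, and 7969 CPM against 64.1, 73.2, and 60.7 CPM, and fell by 6.85 ± 0.19 on the log2 scale (adjusted p = 5.4e-10). *Apoa2* had 3541, 3701, and 4371 CPM against 29.8, 34.8, and 31.2 CPM, and fell by 6.94 ± 0.20 (adjusted p = 6.8e-10), with no overlap for either gene.

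The carrier proteins *Apom* and *Apoh* were in the same range. *Apom* had 1019, 1136, and 1132 CPM in CD54+CD31- cells and 8.29, 10.7, and 8.45 CPM in Kit+ cells, and fell by 6.92 ± 0.18 on the log2 scale (edgeR adjusted p = 3.8e-10). *Apoh* had 660, 698, and 679 CPM against 5.49, 8.26, and 5.06 CPM, and fell by 6.78 ± 0.27 (adjusted p = 7.0e-09). Both genes thus kept their 2 populations apart in every library. *Apoc1*, whose product inhibits lipoprotein receptor binding and lipid transfer, had 300.2, 361, and 363 CPM against 3.24, 3.54, and 3.70 CPM, and fell by 6.63 ± 0.16 (adjusted p = 3.0e-10).

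*Apoe* had the smallest difference of the 9 genes. It was at 7263, 8804, and 8318 CPM in CD54+CD31- cells and at 111, 183, and 106 CPM in Kit+ cells, 61.7-fold lower (log2 fold change -5.95 ± 0.27 SE, edgeR adjusted p = 1.7e-08). Replicate 2 of Kit+ cells was the highest of its population, and the populations did not overlap. The 7 endothelial markers summed to 44.8, 282, and 76.1 CPM in Kit+ replicates 1, 2, and 3, and without replicate 2 the log2 fold change of *Apoe* was -6.24, still below an adjusted p of 0.05 (edgeR). The part of these cells in the *Apoe* values was not tested. Macrophage marker genes (10 genes) summed to between 180 and 294 CPM in CD54+CD31- cells and to 8.34, 14.1, and 10.6 CPM in Kit+ replicates 1, 2, and 3. The part of macrophages in the *Apoe* values was not tested either.

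*Apoc3*, whose product inhibits lipoprotein lipase, and *Apoa5*, whose product promotes lipolysis, rested on few counts. *Apoc3* had 46, 70, and 78 counts in CD54+CD31- cells and 3, 0, and 0 counts in Kit+ cells, so the summed level was 86.2 times as high in CD54+CD31- cells, with an exact 95% interval of 29.1 to 422 for counting error only. *Apoa5* had 31, 17, and 31 counts against 0, 0, and 1 count, a ratio of 105 (18.4 to 4213). Both were called lower (edgeR adjusted p = 0.00011 and 8.8e-05), but they passed the low count filter only through CD54+CD31- cells. The calls are therefore no support beyond the counts themselves. *Apoa4* had 5, 0, and 2 counts in CD54+CD31- cells and 0 in each Kit+ library, which is too little for a comparison at this depth.

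CD31+ cells, which are rich in endothelial transcripts, were compared with the same CD54+CD31- libraries, so the 2 comparisons share them. Of 9 tested genes, 9 were lower in CD31+ cells and 0 higher (edgeR), beside 34.0% of all tested genes called lower and 31.7% higher. DESeq2 again gave 9 and 0, with 0 higher at an unadjusted p below 0.05. As above, *Apoc3* and *Apoa5* entered the count only through CD54+CD31- cells. The median log2 fold change of the 9 genes was -6.24, beside -0.03 over all tested genes.

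*Apoe* was far less reduced than the others. It was at 1533, 1486, and 1035 CPM in CD31+ cells, against 7263 to 8804 CPM in CD54+CD31- cells, 6.05-fold lower (log2 fold change -2.60 ± 0.23 SE, edgeR adjusted p = 3.5e-06). The other 8 genes were between 37.9-fold (*Apoc1*) and 87.7-fold (*Apoa5*, on 1 count in CD31+ cells) lower, and *Apom* came next to the latter at 85.3-fold. *Apoe* alone made up 83.2% ± 2.05 (SD, n = 3) of the counts of the 10 genes in CD31+ cells, 29.3% ± 1.30 (SD, n = 3) in CD54+CD31- cells, and 41.8% ± 5.95 (SD, n = 3) in Kit+ cells, without overlap between the 3 populations. The macrophage markers summed to 71.0, 97.5, and 137 CPM in CD31+ replicates 1, 2, and 3, and to at least 180 CPM in CD54+CD31- cells. The median log2 fold change of the tested macrophage markers was -1.02, a smaller difference than that of *Apoe*. The part of macrophages in the *Apoe* values was not tested.

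**Figure D2:**
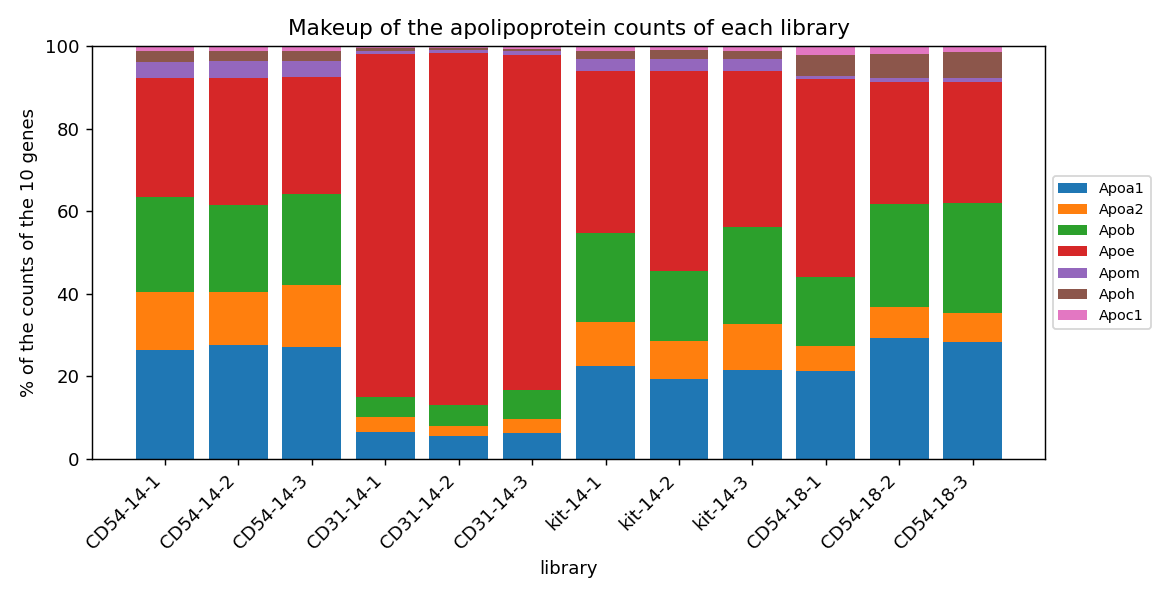
Share of the counts of the 10 genes taken by each of the 7 abundant genes (% of their summed counts, stacked) in each library, named by population label and replicate. *Apoe* takes between 81.2% and 85.3% in the 3 CD31+ libraries (CD31-14) and between 28.4% and 30.8% in the E14.5 CD54+CD31- libraries (CD54-14).

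*Apoc1*, the neighbor of *Apoe* on chromosome 7, had the next smallest difference. It was at 9.68, 7.32, and 10.1 CPM in CD31+ libraries (log2 fold change -5.24 ± 0.15 SE, edgeR adjusted p = 9.6e-10). *Apoa1* (121, 95.9, and 80.3 CPM), *Apoa2* (65.0, 44.6, and 44.3 CPM), and *Apob* (89.2, 86.3, and 87.2 CPM) had log2 fold changes of -6.25 ± 0.18, -6.24 ± 0.19, and -6.13 ± 0.10. These 3 genes had almost the same fold change. *Apom* (15.2, 12.9, and 10.6 CPM) and *Apoh* (11.7, 8.53, and 6.61 CPM) had log2 fold changes of -6.42 ± 0.18 and -6.25 ± 0.26. *Apoc3*, with 5, 1, and 1 counts, was 45.04 times as high in CD54+CD31- cells by summed counts (exact interval 21.4 to 114), and *Apoa5*, with 0, 1, and 0 counts, 128 times (22.4 to 5134). *Apoa4* had 2, 9, and 8 counts and was not tested, with overlapping libraries.

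Kit+ cells were then set against CD31+ cells. Here 6 of 9 tested genes were lower in Kit+ cells and 0 higher (edgeR), beside 39.4% of all tested genes lower and 34.3% higher. The median log2 fold change of the 9 genes was -0.60, beside -0.13 over all tested genes. *Apoe* led, 10.2-fold lower in Kit+ cells (log2 fold change -3.35 ± 0.24 SE, adjusted p = 6.0e-07), followed by *Apoc1*, 2.61-fold lower (-1.38 ± 0.14, adjusted p = 7.1e-06). *Apoa2* (-0.70 ± 0.16), *Apoa1* (-0.60 ± 0.15), *Apom* (-0.51 ± 0.14), and *Apob* (-0.48 ± 0.08) fell less. *Apoe* and *Apoc1* were the 2 genes still called when all 12 libraries shared 1 fit, and *Apom* was not called without Kit+ replicate 1 (adjusted p = 0.076). *Apoh* just missed the test (-0.52 ± 0.22, adjusted p = 0.052) and passed it with the replicate number as a block (adjusted p = 0.044) or with DESeq2 (adjusted p = 0.027). DESeq2 called 7 lower and 0 higher, and 0 were higher at an unadjusted p below 0.05. *Apoc3* (-0.86 ± 1.17) and *Apoa5* (0.18 ± 1.37) rested on at most 5 counts per library.

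**Figure D3:**
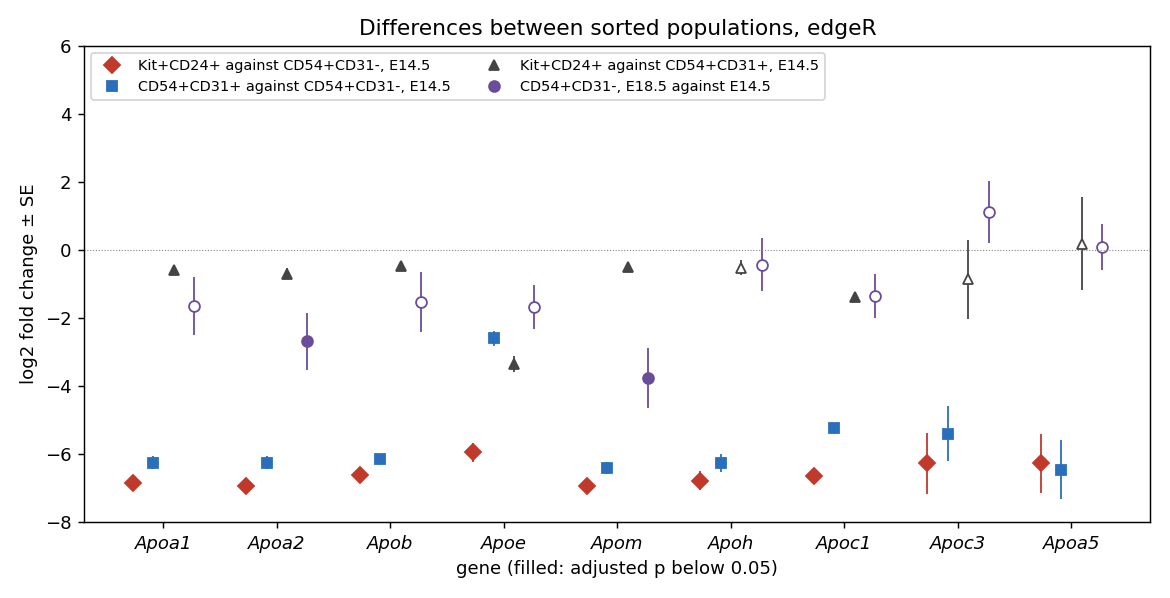
Log2 fold change ± SE (edgeR) of the 9 tested genes in the 4 comparisons, filled where the adjusted p was below 0.05. *Apoe* stands at -2.60 in CD31+ against CD54+CD31- cells, where the other genes lie between -5.24 and -6.45 (*Apoa5*, at few counts), and *Apom* at -3.76 is lowest in the comparison of E18.5 with E14.5.

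To compare the genes within a library, their counts were divided by the *Alb* count of the same library. Of 24 such ratios compared between populations, the smallest two-sided exact permutation p was 0.10, the smallest that 3 against 3 libraries allow, and 0.171 after adjustment, so none can pass 0.05 and the values are given with their overlap. *Apoe* had 177, 189, and 178 counts per 1000 *Alb* counts in CD54+CD31- cells, 282, 486, and 271 in Kit+ cells, and 3158, 3083, and 2225 in CD31+ cells. The populations did not overlap, and the ratio was 15.4-fold higher in CD31+ and 1.84-fold higher in Kit+ than in CD54+CD31- cells (exact permutation p = 0.10 for each). *Apoc1* had 7.33, 7.74, and 7.77 counts per 1000 *Alb* counts in CD54+CD31- cells, 8.20, 9.38, and 9.50 in Kit+ cells, and 19.9, 15.2, and 21.7 in CD31+ cells, a 2.46-fold difference for CD31+ cells (exact permutation p = 0.10).

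The other 5 abundant genes stayed close to their ratio in CD54+CD31- cells. In Kit+ cells, *Apoa1*, *Apoa2*, *Apoh*, and *Apom* had ratios between 0.95-fold and 1.04-fold of those in CD54+CD31- cells, with overlapping libraries, and *Apob* and *Apoc1* 1.20-fold and 1.18-fold without overlap. In CD31+ cells, *Apoa1*, *Apoa2*, *Apob*, *Apoh*, and *Apom* had ratios between 1.09-fold and 1.34-fold, of which *Apoa1* and *Apob* did not overlap. With *Ttr* in place of *Alb*, *Apoe* and *Apoc1* remained 12.1-fold and 1.94-fold higher in CD31+ cells, and *Apoa1* and *Apob* overlapped CD54+CD31- cells. With *Ahsg*, *Apoe* and *Apoc1* were 13.8-fold and 2.21-fold higher in CD31+ cells, and *Apoa1* and *Apob* 1.10-fold and 1.20-fold higher without overlap. *Ttr* and *Ahsg* encode 2 other plasma proteins of the liver, transthyretin and fetuin-A.

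**Figure D4:**
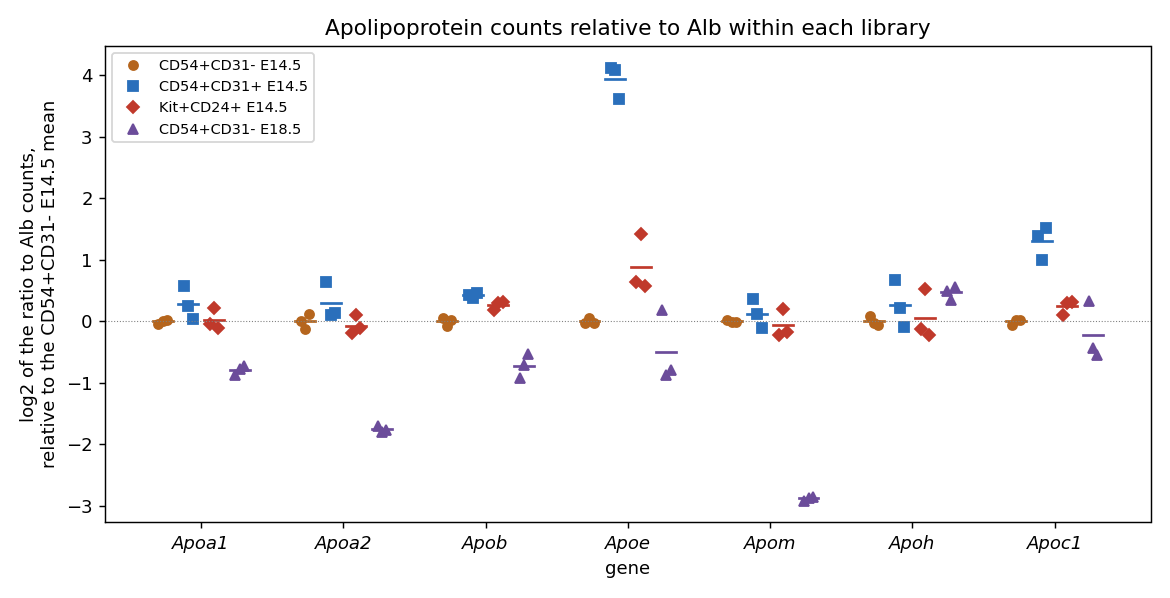
Log2 of the ratio of each gene's counts to *Alb* counts in each library, relative to the mean of E14.5 CD54+CD31- cells, with the mean of each population as a bar. *Apoe* and *Apoc1* stand 3.94 and 1.30 above 0 in CD31+ cells, and *Apom* stands at -2.88 at E18.5.

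CD54+CD31- cells at E18.5 were compared with those at E14.5 to describe the change over time, with the lung and mesenchymal genes above in mind. Of 9 tested genes, 2 fell (*Apoa2* and *Apom*) and 0 rose, beside 33.5% of 15863 tested genes called lower and 35.9% higher (edgeR). At an unadjusted p below 0.05, *Apoe* was lower too and 0 members were higher. DESeq2 called 5 lower and 0 higher. The median log2 fold change of the 9 genes was -1.52, beside 0.03 over all tested genes.

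*Apom* was at 7.83, 89.2, and 117 CPM at E18.5, against 1019 to 1136 CPM at E14.5. All 3 libraries lay under the lowest E14.5 library, and *Apom* was 13.6-fold lower (log2 fold change -3.76 ± 0.88 SE, edgeR adjusted p = 0.0079), or 9.44-fold lower without E18.5 replicate 1 (adjusted p = 3.5e-07). Per 1000 *Alb* counts, *Apom* had 3.26, 3.35, and 3.40 counts at E18.5 and 24.9, 24.4, and 24.2 at E14.5, so replicate 1 did not stand apart on this scale. The ratio was 7.34-fold lower at E18.5, 5.70-fold lower with *Ttr* and 19.7-fold lower with *Ahsg* in place of *Alb* (exact permutation p = 0.10 for each).

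*Apoa2* was at 63.9, 664, and 873 CPM at E18.5, against 3541 to 4371 CPM, 6.43-fold lower (log2 fold change -2.68 ± 0.83 SE, edgeR adjusted p = 0.025). It missed the test when E18.5 replicate 2 (adjusted p = 0.058) or any E14.5 library was left out (adjusted p between 0.054 and 0.065), and was 4.48-fold lower without E18.5 replicate 1 (adjusted p = 8.5e-06). Per 1000 *Alb* counts it had 26.6, 24.9, and 25.3 counts at E18.5 and 86.5, 79.4, and 93.7 at E14.5. The 2 ages did not overlap, and the ratio was 3.37-fold lower at E18.5 (exact permutation p = 0.10), 2.62-fold with *Ttr* and 9.02-fold with *Ahsg* in place of *Alb*.

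Without E18.5 replicate 1, 6 members were lower (*Apoa1*, *Apoa2*, *Apob*, *Apoc1*, *Apoe*, and *Apom*) and 2 higher (*Apoa4* and *Apoc3*), beside 35.9% of 16074 genes lower and 36.8% higher (edgeR). *Apoa4* entered this count only through the E18.5 libraries where it was high (below). *Apoa1* was at 219, 2613, and 3514 CPM in the 3 E18.5 libraries, *Apob* at 174, 2227, and 3273, and *Apoe* at 495, 2642, and 3641. Each E18.5 library was below the lowest E14.5 library for the 3 genes. With all libraries their log2 fold changes were -1.65 ± 0.85, -1.52 ± 0.87, and -1.67 ± 0.66 (adjusted p = 0.12, 0.16, and 0.057). Without replicate 1 they were -1.12 ± 0.19, -0.99 ± 0.20, and -1.20 ± 0.20 (adjusted p = 0.00070, 0.0018, and 0.00059). *Apoc1*, at 23.1, 150, and 180 CPM, had -1.36 ± 0.65 (adjusted p = 0.099) with and -0.88 ± 0.11 (adjusted p = 0.00014) without replicate 1.

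Relative to *Alb*, *Apoa1* (91.2, 98.2, and 102 counts per 1000 *Alb* counts) and *Apob* (72.3, 83.7, and 94.8) were below E14.5 in every library, 1.73-fold and 1.65-fold (exact permutation p = 0.10 for each). With *Ttr* in place of *Alb* they were 1.34-fold and 1.28-fold lower, the latter with overlapping libraries, and with *Ahsg* 4.62-fold and 4.41-fold. *Apoe* had 206, 99.3, and 105 counts per 1000 *Alb* counts and *Apoc1* 9.61, 5.63, and 5.20, so for these neighbors replicate 1 lay above and the other 2 libraries below the E14.5 values. With *Ttr* in place of *Alb* the ages also overlapped for both genes. With *Ahsg*, *Apoe* and *Apoc1* were 3.76-fold and 3.11-fold lower at E18.5 without overlap, so the place of replicate 1 depends on the reference gene. The 10 macrophage markers summed to 585, 372, and 378 CPM in E18.5 replicates 1, 2, and 3. *Lyz2*, which alveolar type 2 cells of the lung also express, made up 530, 194, and 204 CPM of these sums, and the other 9 markers summed to 54.9, 178, and 174 CPM, lowest in replicate 1. The part of either cell type in the *Apoe* values was not tested. *Apoe* took 47.8% of the counts of the 10 genes in replicate 1 and 29.6% and 29.4% in the others.

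The 4 remaining members are *Apoh*, *Apoc3*, *Apoa5*, and *Apoa4*. *Apoh* was at 51.5, 517, and 774 CPM against 660 to 698 CPM, with overlap (log2 fold change -0.43 ± 0.79, edgeR adjusted p = 0.65, and 0.10 ± 0.16 without replicate 1, adjusted p = 0.61), and at 21.4, 19.4, and 22.4 counts per 1000 *Alb* counts against 16.1, 15.0, and 14.6, without overlap (1.39-fold higher, exact permutation p = 0.10). With *Ahsg* in place of *Alb*, this ratio was 1.93-fold lower at E18.5. *Apoc3* had 17, 325, and 430 counts, or 0.263, 4.2, and 5.95 CPM against 1.30 to 2.20 CPM. Replicate 1 was below and the other 2 libraries above all E14.5 libraries, with a log2 fold change of 1.12 ± 0.90 (adjusted p = 0.30), and 1.66 ± 0.27 without replicate 1 (adjusted p = 0.00052). Per 1000 *Alb* counts, *Apoc3* had 0.109, 0.158, and 0.172 counts against 0.0318, 0.0473, and 0.0412, without overlap (3.64-fold higher, exact permutation p = 0.10). With *Ttr* this ratio was 4.69-fold higher, and with *Ahsg* 1.36-fold with overlapping libraries. *Apoa5* had 9, 64, and 77 counts and a log2 fold change of 0.08 ± 0.68 (adjusted p = 0.93), with overlapping libraries, and 0.54 ± 0.39 without replicate 1 (adjusted p = 0.24). Its ratio to *Alb*, on few counts, was 2.40-fold higher at E18.5 without overlap (exact permutation p = 0.10). With *Ttr* the ratio was 3.09-fold higher, and with *Ahsg* it was 0.90-fold of that at E14.5, with overlapping libraries.

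*Apoa4* had 2, 874, and 224 counts at E18.5 and 5, 0, and 2 counts at E14.5. The low count filter left it out of the age comparison because replicate 1 and the E14.5 libraries were near 0. By summed counts the E14.5 level was 0.0127 times the E18.5 level (exact 95% interval 0.00508 to 0.0262, counting error only). Without E18.5 replicate 1, *Apoa4* was tested and rose by 6.90 ± 0.79 on the log2 scale (edgeR adjusted p = 6.0e-05). It passed the low count filter there only through the E18.5 libraries where it was high, so this p-value is no support for a rise. The 5 intestinal epithelial genes listed summed to between 3.95 and 5.52 CPM at E18.5 and between 23.1 and 30.7 CPM in E14.5 CD54+CD31- cells. *Lgr5*, which other tissues also express, made up 15.0 to 21.8 CPM of the E14.5 sums, and the other 4 genes summed to between 1.80 and 3.75 CPM at E18.5 and between 7.60 and 8.94 CPM at E14.5. *Vil1* alone was at 1.80 to 2.85 CPM at E18.5 and 7.60 to 8.83 CPM at E14.5, so the sums mostly follow *Lgr5* and *Vil1*. *Cdx2* was at 0, 0.142, and 0.0277 CPM in the E18.5 libraries and at 0.113, 0, and 0 CPM in the E14.5 libraries. *Fabp2* was at 0 in all 12 libraries, and *Alpi* was at 0 in every E14.5 library and in E18.5 replicate 1 and at 0.763 and 0.332 CPM in E18.5 replicates 2 and 3. The part of intestinal cells in the *Apoa4* counts was not tested.

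Lipoprotein genes beyond the 10 were taken from 7 lists of 80 genes, of which 70 were tested. Against E14.5 CD54+CD31- cells, 59 (84.3%) were lower and 4 (5.71%) higher in Kit+ cells, and 59 (84.3%) were lower and 6 (8.57%) higher in CD31+ cells (edgeR), beside 36.1% and 33.8% of all tested genes for Kit+ cells and 34.0% and 31.7% for CD31+ cells. *Mttp*, the lipid transfer protein that loads *Apob* protein with lipid, was at 320 to 337 CPM in CD54+CD31- cells and had log2 fold changes of -5.85 ± 0.13 in Kit+ and -5.74 ± 0.13 in CD31+ cells. For assembly and secretion, 7 of 8 genes in Kit+ and 8 of 8 in CD31+ cells were lower (medians -2.36 and -1.88), and for *Apob* mRNA editing 3 of 3 in both (medians -5.92 and -4.58). The editing cofactors *A1cf* (-6.08 and -5.51) and *Rbm47* (-5.92 and -4.58) had larger differences than the deaminase *Apobec1* (-0.83 and -1.01).

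Among 12 lipoprotein receptor genes, 10 were lower and 1 higher in each of the 2 populations (medians -2.59 and -1.86). The fatty acid translocase *Cd36* rose by 6.02 ± 0.38 in CD31+ cells. Among 10 lipase and plasma modifier genes, 8 were lower and 1 higher in Kit+ cells (median -4.97) and 9 and 1 in CD31+ cells (median -2.83), where *Gpihbp1*, the endothelial anchor of lipoprotein lipase, rose by 8.80 ± 0.71. The hepatic lipase gene *Lipc* had -5.95 ± 0.16 and -5.19 ± 0.15. Of 5 lipid efflux transporter genes, 4 were lower and 1 higher in Kit+ cells, and 3 and 2 in CD31+ cells (medians -5.73 and -2.62). *Abca1*, which loads *Apoa1* protein with cholesterol, had -5.73 ± 0.16 and -2.62 ± 0.14, and *Abcg1* rose by 3.43 ± 0.31 in CD31+ cells.

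Among 24 transcription regulators of these genes, 22 were lower and 1 higher in Kit+ cells (median -5.64), and 19 and 2 in CD31+ cells (median -3.98). *Hnf4a*, a nuclear receptor that activates many apolipoprotein genes, had log2 fold changes of -6.21 ± 0.15 and -6.07 ± 0.15, and *Foxa3* -7.23 ± 0.23 and -6.10 ± 0.21. Of 8 other apolipoprotein genes tested, 5 were lower in Kit+ and 7 in CD31+ cells and 0 higher (medians -3.89 and -2.13), led by *Apof* (-7.19 ± 0.14 and -6.73 ± 0.13). *Apoc2*, the cofactor of lipoprotein lipase, is listed at 0 in all 12 libraries, and shares 646 exon bases with Gm44805 on its own strand, which had at most 6 counts.

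Between Kit+ and CD31+ cells, 42 of the 70 genes (60%) were lower in Kit+ cells and 11 (15.7%) higher, beside 39.4% and 34.3% of all tested genes. The lists split as 3 lower and 2 higher for assembly and secretion, 2 and 0 for editing, 7 and 4 for receptors, 7 and 1 for lipases and modifiers, 16 and 3 for regulators, and 2 and 1 for other apolipoproteins. All 5 transporter genes were lower, led by *Abcg1* (-4.34 ± 0.32) and *Abca1* (-3.11 ± 0.14). *Hnf4a* (-0.15 ± 0.12, adjusted p = 0.30), *Mttp* (-0.12 ± 0.12, adjusted p = 0.39), and *Apobec1* (0.18 ± 0.21, adjusted p = 0.46) did not pass the test. At E18.5, 32 (45.7%) were lower and 19 (27.1%) higher than at E14.5, beside 33.5% and 35.9% of all tested genes. The lists split as 7 lower and 0 higher for assembly and secretion, 0 and 1 for editing, 6 and 5 for receptors, 3 and 5 for lipases and modifiers, 2 and 1 for transporters, 10 and 6 for regulators, and 4 and 1 for other apolipoproteins. Those lower included *Mttp* (-2.49 ± 0.63) and *Hnf4a* (-2.30 ± 0.74). *Cd36* (5.49 ± 0.35) and *Lrp2* (5.08 ± 0.29) rose beside the lung and mesenchymal genes. *Apobec1* had -0.13 ± 0.49 (adjusted p = 0.82). Without E18.5 replicate 1, 37 of 70 were lower and 23 higher, beside 35.9% and 36.8% of all tested genes. The lists then split as 8 lower and 0 higher for assembly and secretion, 1 and 1 for editing, 7 and 5 for receptors, 4 and 5 for lipases and modifiers, 2 and 1 for transporters, 10 and 9 for regulators, and 5 and 2 for other apolipoproteins. *Mttp* (-2.02 ± 0.12), *Hnf4a* (-1.79 ± 0.14), *Cd36* (5.16 ± 0.19), and *Lrp2* (4.803 ± 0.16) kept their direction and their call, and *Apobec1* had 0.28 ± 0.16 (edgeR adjusted p = 0.15).

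Genes with the most similar pattern were found by Pearson's r of log2(CPM + 1) over the 12 libraries among 16634 genes, which is a description, since the 4 populations set most of it. *Apoa1* was most like *Plg* (r = 0.9994), *Apoa2* like *Lipc* (0.9996), *Apob* and *Apoa1* shared *Hgfac* among their nearest 3, and *Apom* was most like *Cdhr2* (0.9988). *Apoh* was most like *C8b* (0.9978), *Apoc1* like *Sema4g* (0.9963), and *Apoc3* and *Apoa5*, at few counts, like *Tff3* (0.9932) and *Cyp2d9* (0.9927). *Apoe* had *Cd302* (0.9932), *Pla2g7* (0.9930), and *Abat* (0.9929). Between members, the lowest r was that of *Apoc3* and *Apoe* (0.694), on the same libraries. *Apoa4* did not pass the low count filter over the 12 libraries and has no r.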

How the data were processed

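Bulk RNA-seq counts of 12 libraries were analysed, 3 for each of 4 populations sorted from FL, and grouped by the sample titles. The authors extracted RNA with the RNeasy micro kit, removed ribosomal RNA with ZapR, and made SMARTer Stranded Total RNA-Seq Pico libraries, so reads are not limited to poly(A) transcripts. Their processing notes name cutadapt 1.11, STAR 2.5.0a, featureCounts 1.4.6-p3, R 3.5.1, DESeq2, and the build GRCm38. The authors deposited raw counts per gene, which were used for every test, and a score, the counts multiplied by 1 factor per library and rounded, from which only that factor was read. The study states independent litters as replicates for its E14.5 RNA-seq populations, and its text does not describe the E18.5 libraries.

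Counts were tested in R 4.3.3 with edgeR 4.0.16 (TMM, filterByExpr, quasi-likelihood test, Benjamini-Hochberg adjustment over all tested genes, threshold 0.05), in the 9 E14.5 libraries together and in the 6 CD54+CD31- libraries for age. Levels are CPM on TMM-adjusted library sizes of all 12 libraries. DESeq2 1.42.0 and other normalizations, filters, and fits were alternatives. Ratios to *Alb* and their alternatives were chosen after seeing the data, and an edgeR fit scaled to *Alb* was tried and left out because it called 95.2% and 97.9% of all genes in the E14.5 comparisons. At 40714017 to 64368883 counts per library, counting error matters only for the genes at few counts, and intervals (95%, exact) cover counting error only. GENCODE vM21 held 37932 of the 38127 identifiers.

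The members and gene lists were chosen with earlier results of these data known. All 10 members are named. From each list the genes named are among the 4 with the largest change among those called without overlap between libraries, plus *Mttp*, *Apobec1*, *Apoc2*, and *Hnf4a*, and 1 further gene that is not reported here. Likeness used the 3 nearest genes per member, without *Apoa4*. Same-numbered CD31+ and CD54+CD31- libraries deviated together across genes (r = 0.33, 0.26, and 0.12), which is taken as pairing from the data and not from the labels, and the replicate block changed no member's call there. In simulated counts for Kit+ against CD54+CD31- cells, the test found 61 of 100 genes changed by 1 on the log2 scale and 98 of 98 changed by 2, and called 9 unchanged genes of 15145. The simulation gave every gene the same dispersion and changed few genes, whereas most tested genes were called in the data. Its rates are therefore a check of the code and not the power of the real comparisons. Apolipoprotein levels in the study's other assays were not analysed here.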

Additional observations from a re-analysis of the deposited data

How the results depend on the processing

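The counts of members lower in Kit+ and in CD31+ cells than in CD54+CD31- cells at E14.5 were between 7 and 9 under every alternative, and 0 were higher. With at least 10 counts in every library, 7 members were tested and lower. Between Kit+ and CD31+ cells, 6 members were lower, 2 when all 12 libraries shared 1 fit, and 5 to 7 when a library was left out. For E18.5 against E14.5, 2 were lower, 5 with DESeq2, 6 with all 12 libraries in 1 fit, and 1 to 6 when a library was left out. None was higher, and 1 without the low count filter (*Apoa4*). When a library was left out, 0 to 2 were higher. The 2 without E18.5 replicate 1 were *Apoc3* and, through its high libraries only, *Apoa4*. Pathway genes higher in Kit+ than CD54+CD31- cells numbered 4, and 2 with the authors' library factors or with at least 10 counts in every library, and those higher in Kit+ than CD31+ cells 11, and 7 with the authors' factors. The cause of these shifts was not tested.

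The authors' factors moved the median log2 fold change of all genes from -0.01 to -0.27 for Kit+ against CD54+CD31- cells, from -0.13 to -0.50 for Kit+ against CD31+ cells, and from 0.03 to 0.27 for age. The share of calls that were higher went from 48.3% to 38.2% and from 46.6% to 33.9% in the first 2, and the summed level in Kit+ cells from 314 to 249 CPM.

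Members that did not pass the test changed sign. *Apoa5* in Kit+ against CD31+ cells was at -0.077 with the authors' factors and between -1.65 and 1.84 with a library left out, and *Apoc3* between -4.00 and 0.29. For age, *Apoa5* was at -0.17 with the replicate block, at -0.10 with all 12 libraries, and between -0.41 and 0.54 with a library left out, and *Apoh* between -1.09 and 0.10. Of 24 log2 ratios to *Alb*, 7 changed sign with *Ttr*, which were *Apoa1* (-0.049) and *Apoh* (-0.011) in Kit+ cells, *Apoa1* (-0.057), *Apoa2* (-0.053), *Apoh* (-0.081), and *Apom* (-0.22, without overlap) in CD31+ cells, and *Apoc1* (0.15) at E18.5. With *Ahsg* 3 did, *Apom* (-0.029) in CD31+ cells and *Apoa5* (-0.16) and *Apoh* (-0.95) at E18.5.

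Same-numbered libraries correlated between -0.02 and 0.08 for Kit+ and CD54+CD31- cells and between 0.02 and 0.07 for the 2 ages. For Kit+ and CD31+ cells the values were 0.02, 0.08, and 0.34 in replicates 1, 2, and 3. Replicate 3 there was as high as the values taken as pairing for CD31+ and CD54+CD31- cells. Pairing was not taken for any of these comparisons, and for Kit+ and CD31+ cells it cannot be settled. With the replicate block, the counts of members lower were 9, 9, 7, and 3 in the 4 comparisons, the added calls being *Apoh* (-0.52, adjusted p = 0.044) and, for age, *Apoe* (-2.05, adjusted p = 0.047). Depth limits *Apoa4*, *Apoa5*, and *Apoc3*, and the 3 libraries per population limit the rest.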

Other observations

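*Apoc3* lies between *Apoa1* and *Apoa4* in the cluster on chromosome 9, and its level per kb was 1.78 CPM against 6074 CPM for *Apoa1* in E14.5 CD54+CD31- cells. *Apoc4*, which lies with *Apoc2* beside *Apoc1* and *Apoe*, had at most 6 counts in any library.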
